A study of Mus musculus with 24 samples.

Results

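The TAM receptors Axl, Mertk and Tyro3 and their ligands Gas6 and Pros1 were followed across 24 RNA sequencing libraries of mouse eosinophils. The Ensembl gene identifiers of the count files were matched to mouse symbols, and the 3 receptor genes and 2 ligand genes were taken, which gave 5 genes of 25746 listed. All 5 were present in every file, and all 5 passed the filter on low counts that left 11885 genes for testing. Axl led the group. Its level rose 3.67-fold when wild-type eosinophils received granulocyte-macrophage colony-stimulating factor (GM-CSF), and it stayed at its lowest in cells labelled Csf2ra-/-, after the gene for the alpha chain of the GM-CSF receptor, with or without the cytokine. Tyro3 and Gas6 did not pass the test in any cytokine comparison, Mertk was close to the limit of detection, and Pros1 was lower in Csf2ra-/- than in wild-type cells when both had GM-CSF.

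Eosinophils were grown from bone marrow of C57BL/6 mice. FLT3 ligand and stem cell factor (100 ng/ml) were present until day 4 in all cultures. They were then replaced by 10 ng/ml of interleukin-5 (IL-5), and a last overnight culture followed the removal of dead cells on day 13. Every group, controls included, therefore remained in IL-5. The 8 groups of 3 libraries were wild type untreated, wild type with GM-CSF at 20 ng/ml, wild type with interleukin-10 (IL-10) at a dose that the labels do not state, wild type with GM-CSF and IL-10, Csf2ra-/- untreated, Csf2ra-/- with GM-CSF, and libraries labelled Irf5-/- untreated and with GM-CSF. The labels do not say how the alleles were made, or whether the 3 libraries of a group came from separate mice or cultures, so the p-values below measure only the spread between these libraries.

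TAM receptors are tyrosine kinases on the cell surface. Gas6 and protein S, the product of Pros1, bridge them to phosphatidylserine, a lipid that dying cells expose, and receptor signalling both supports the uptake of those cells and dampens inflammatory cytokine and interferon responses. Axl responds mainly to Gas6, while Mertk and Tyro3 respond to both ligands, and Mertk is best known from the clearance of dead cells by macrophages.

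The libraries held 6222979 to 18709153 counts on genes, with 12910 to 15196 genes detected. The granule protein genes of eosinophils, Epx (13513 to 20766 CPM, counts scaled to the same total in every library) and Prg2 (39139 to 65228 CPM) were high in all 24 libraries. Markers of other cell types summed per library to 2109 to 2858 CPM for monocytes and macrophages, 1052 to 1585 for megakaryocytes and platelets, 443 to 644 for stroma and endothelium, 422 to 905 for neutrophils, 310 to 581 for mast cells and basophils, 55.0 to 341 for dendritic cells and 0.666 to 1.70 for lymphocytes, against 71755 to 110617 CPM for eosinophils. These sums follow their most abundant genes and do not measure cell content. In untreated wild type the platelet list held Itga2b at a mean of 1038 CPM, against 76.9 for Ppbp and 6.82 for Pf4. The stromal and endothelial list held Pecam1 at 408 CPM, against 43.5 for Pdgfrb and 1.16 for Col1a1. Csf2ra itself was at 28.5 to 39.8 CPM in the 6 Csf2ra-/- libraries and at 41.8 to 83.8 CPM in the other 18. Irf5, which encodes a transcription factor of the interferon regulatory family, ranged from 28.3 to 94.3 CPM in the 18 libraries of the other genotypes and from 1394 to 1999 CPM in those labelled Irf5-/-, which goes against that label, so every direction given for those libraries is that of the label only. Summed transcripts of 4 Y-linked genes ranged from 12.1 to 185 CPM, with both high and low libraries inside 6 of the 8 groups. The 6 Csf2ra-/- libraries were all high, at 148 to 185 CPM, so comparisons of Csf2ra-/- with wild type also differ in this level. In libraries labelled Irf5-/- the sums were 178, 12.1 and 39.3 CPM untreated and 163, 13.2 and 44.0 CPM after GM-CSF. Whether cultures were shared between treatments was not tested, and the libraries were treated as independent.

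Axl lies on chromosome 7 (chr7:25757273-25788705, minus strand, GRCm38), Mertk and Tyro3 on chromosome 2 (chr2:128698956-128802894 and chr2:119797733-119818104, plus strand), Gas6 on chromosome 8 (chr8:13465374-13494490, minus strand) and Pros1 on chromosome 16 (chr16:62854307-62929346, plus strand). Of the genes that overlap them, Gm14011 and Gm23172 share no exon base with Mertk, and Tmem255b, on the opposite strand from Gas6 with 34 shared exon bases, had 0 counts in all 24 libraries. The 250 bases before the RefSeq start of each gene were searched on both strands for 4 short motifs, and the windows of Axl and Pros1 are printed because these 2 members were lower in Csf2ra-/- than in wild-type cells with GM-CSF. All 5 members were matched in the RefSeq promoter table of GRCm38.p6. The printed windows run 5′ to 3′ on the strand of the gene. Capitals mark the PU.1 match in Axl and the STAT match in Pros1, and Sp1 matches are left in lower case.

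Axl promoter, chr7:25788734-25788983, minus strand: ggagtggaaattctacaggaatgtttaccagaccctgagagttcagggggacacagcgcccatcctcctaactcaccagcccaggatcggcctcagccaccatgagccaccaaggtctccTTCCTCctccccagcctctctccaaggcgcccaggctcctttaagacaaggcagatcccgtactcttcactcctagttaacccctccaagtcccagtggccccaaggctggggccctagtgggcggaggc

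Pros1 promoter, chr16:62854057-62854306, plus strand: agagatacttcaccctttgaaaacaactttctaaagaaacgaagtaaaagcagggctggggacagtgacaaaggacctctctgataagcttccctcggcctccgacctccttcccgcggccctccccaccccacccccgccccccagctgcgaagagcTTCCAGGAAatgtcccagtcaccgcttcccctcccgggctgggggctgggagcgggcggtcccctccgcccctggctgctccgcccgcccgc

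The capitals in the Axl window are the reverse complement of GAGGAA, the core recognised by the myeloid factor PU.1, starting 130 bases before the start site, and 23.3% of all 32817 promoter windows hold that motif. The capitals in the Pros1 window are a match to TTCNNNGAA, the gamma-activated site bound by STAT factors, which act downstream of cytokine receptors. It starts 92 bases before the start site, and 7.01% of windows hold one. Axl, Mertk, Tyro3 and Gas6 had no match to TTCNNNGAA, and Mertk, Tyro3, Gas6 and Pros1 had none to GAGGAA. The AP-1 motif TGANTCA, held by 6.75% of windows, was in none of the 5, and the Sp1 box GGGCGG, held by 32.7%, was in all of them, from 1 match at Axl to 5 at Pros1. The Pros1 matches that begin 12 and 8 bases before the start site overlap each other. These are descriptions of letters in a window, and no binding was measured here.

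Per length of transcript, Axl had the highest mean of the 5 genes in the 6 groups that were not Csf2ra-/-, and Tyro3 in both Csf2ra-/- groups (1.13 against 0.772 RPKM for Axl untreated, 1.00 against 0.743 RPKM with GM-CSF). In untreated wild-type cells its level was 2.22 ± 0.135 RPKM (the CPM divided by the exon length in kilobases; SD, n = 3), against 0.701 ± 0.0912 for Tyro3, 0.287 ± 0.0248 for Pros1, 0.273 ± 0.110 for Gas6 and 0.0505 ± 0.0595 for Mertk. With GM-CSF the Axl level was 8.17 ± 3.03 RPKM and that of Tyro3 0.651 ± 0.207 RPKM. None of the 5 is an abundant transcript in these cells. Over the 24 libraries the mean Axl level, 18.8 CPM, was above that of 43.4% of tested genes, the mean Tyro3 level of 5.17 CPM above 21.3%, Pros1 at 1.46 CPM above 10.1%, Gas6 at 0.665 CPM above 3.95% and Mertk at 0.388 CPM above 0.589%. The counts behind these levels differ as much, with 6482 in all for Axl, 1727 for Tyro3, 501 for Pros1, 229 for Gas6 and 133 for Mertk. All further levels are CPM after TMM scaling in edgeR, which corrects for libraries that differ in composition, and differences are log2 fold changes from edgeR with their standard errors (SE).

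Axl encodes the receptor with the highest affinity for Gas6. In the 3 untreated wild-type libraries it was at 11.5, 11.6 and 10.4 CPM, and in the 3 with GM-CSF at 48.1, 23.6 and 51.6 CPM. The lowest GM-CSF library stood above the highest untreated one, a separation found in 12.8% of all tested genes, and the spread with GM-CSF (41.1 ± 15.2 CPM, SD, n = 3) was much wider than without it (11.2 ± 0.678 CPM). Axl rose by a log2 fold change of 1.88 ± 0.32 (SE; 95% interval 1.21 to 2.54; adjusted p = 0.00333, edgeR quasi-likelihood test with Benjamini-Hochberg adjustment). It was 1 of 5 members past the threshold of 0.05 in this comparison, where 0.555% of all tested genes passed, and it ranked 29 of 11885 genes by p. Leaving out each library in turn gave 1.68 to 2.16.

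**Figure D1:**
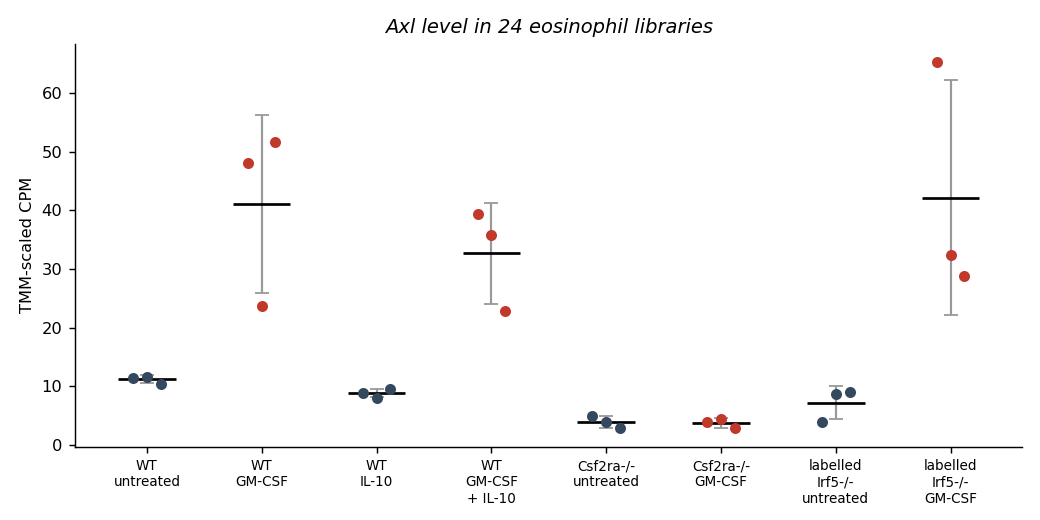
Axl level in each of the 24 libraries by group (y axis, TMM-scaled CPM; linear). Points are libraries, red with GM-CSF and dark without, black bars are group means and grey bars ± 1 SD (n = 3). The GM-CSF groups of wild type and of libraries labelled Irf5-/- lie between 22.9 and 65.2 CPM, and both Csf2ra-/- groups lie at or below 4.93 CPM.

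GM-CSF also raised Axl when IL-10, a cytokine that dampens inflammation, was present. The levels of Axl were 8.90, 8.09 and 9.47 CPM for the libraries that had IL-10 alone, against 39.3, 35.8 and 22.9 CPM for those that had both cytokines. These 2 groups did not overlap either (17.3% of all tested genes did not). The log2 fold change was 1.89 ± 0.32 (edgeR, adjusted p = 0.00301), and Axl was again 1 of 5 members past the threshold, against 0.858% of all genes. The difference between the GM-CSF effects with and without IL-10 was 0.01 ± 0.44 for Axl (95% interval -0.90 to 0.92, edgeR adjusted p = 1.00), so a difference of nearly 1 log2 unit in either direction lies inside the interval. In that test of differences 0 of 5 members and 0% of all genes passed (149 genes had an unadjusted p under 0.05, none of them a member, and DESeq2 called 0 members).

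IL-10 alone did not move Axl past the threshold. The 3 IL-10 libraries lay below the 3 untreated ones without overlap, as 15.1% of all tested genes did in one or the other direction, but the fitted difference was -0.34 ± 0.33 (edgeR, adjusted p = 0.999). With GM-CSF present the IL-10 difference was -0.33 ± 0.30 (edgeR, adjusted p = 1.00) and the libraries overlapped. In each of these 2 comparisons 0 of 5 members passed, against 0.0505% of all genes (539 and 382 genes had an unadjusted p under 0.05), and DESeq2 and limma-voom also called 0 members. The 1 member with an unadjusted p under 0.05 in each was Mertk, which passed the low-count filter only through wild-type libraries with a cytokine.

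In Csf2ra-/- cells Axl stayed low and GM-CSF made no detectable difference. The untreated libraries held 4.93, 3.89 and 2.84 CPM, and those given GM-CSF held 3.89, 4.44 and 2.88 CPM. The 2 groups overlapped almost completely, with a log2 fold change of -0.01 ± 0.40 (95% interval -0.84 to 0.83, edgeR adjusted p = 0.999). No gene at all passed in this comparison (0 of 5 members, 0% of all genes), although 531 genes had an unadjusted p under 0.05, 1 member (Mertk) among them, and DESeq2 called 0 members and 0 genes. The difference between this effect and the wild-type effect was -1.88 ± 0.51 for Axl (95% interval -2.94 to -0.82). Its adjusted p was 0.454 in edgeR, where 0 of 5 members and 0.0589% of all genes passed, and 0.0339 in DESeq2, and it ran from 0.0339 to 1.00 over the alternatives.

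Set against wild type, Axl was lower in Csf2ra-/- cells under both conditions. Without GM-CSF its log2 fold change was -1.57 ± 0.37 (edgeR, adjusted p = 0.0118), a level 0.337 times that of wild type. With GM-CSF it was -3.45 ± 0.35 (95% interval -4.19 to -2.72, edgeR adjusted p = 2.65e-06), a level 0.0914 times that of wild type, and Axl ranked 15 of 11885 genes by p. In neither condition did the groups overlap, which held for 21.2% of all tested genes untreated and 18.1% with GM-CSF. Leaving out each library gave -1.72 to -1.37 untreated and -3.73 to -3.26 with GM-CSF. Axl was 1 of 2 members past the threshold in each comparison, where 10.8% of all genes passed without GM-CSF (5.32% lower, 5.52% higher) and 3.79% with it (2.89% lower). These comparisons share their wild-type libraries with the GM-CSF comparison above.

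The libraries labelled Irf5-/- showed the wild-type order of Axl. Untreated, they held 4.00, 8.73 and 8.95 CPM. Those that had GM-CSF held 65.2, 32.4 and 28.8 CPM, and the first GM-CSF library was the highest of all 24. Axl rose by a log2 fold change of 2.47 ± 0.34 (95% interval 1.78 to 3.17, edgeR adjusted p = 0.000562), was 1 of 5 members past the threshold against 0.353% of all genes, and ranked 7 by p. Fitted on these 2 groups alone the estimate was 2.45 and the adjusted p 0.212. The difference from the wild-type effect was 0.60 ± 0.45 (edgeR, adjusted p = 0.987), with 0 of 5 members and 0% of all genes past the threshold (375 genes and 0 members at an unadjusted p under 0.05, and 0 members by DESeq2). Against wild type, Axl differed by -0.56 ± 0.34 untreated (edgeR, adjusted p = 0.447), where the groups did not overlap, which held for 26% of all tested genes, and by 0.04 ± 0.30 with GM-CSF (95% interval -0.58 to 0.66, edgeR adjusted p = 1.00). In both of those comparisons 0 of 5 members passed, against 0.0337% of all genes (1668 and 173 genes, and 0 and 1 members, at an unadjusted p under 0.05, and 0 members by DESeq2).

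By mean level the groups ordered for Axl as labelled Irf5-/- with GM-CSF, wild type with GM-CSF and wild type with both cytokines, then wild type untreated and wild type with IL-10, then labelled Irf5-/- untreated, Csf2ra-/- untreated and Csf2ra-/- with GM-CSF. The first 3 groups overlapped each other. No library of wild type with both cytokines overlapped untreated wild type, and untreated wild type did not overlap wild type with IL-10. From there down each group overlapped its neighbour.

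Macrophages and dendritic cells also express Axl, so their markers were read beside it. In wild type with and without GM-CSF, 0 of 15 monocyte and macrophage markers were higher and 1, the fractalkine receptor Cx3cr1, was lower. Of all tested genes 0.555% were called there, in either direction. The macrophage list summed to 2667 to 2726 CPM before and 2409 to 2741 CPM after the cytokine. The dendritic cell list (8 of 9 genes tested, 0 called by edgeR, 2 at an unadjusted p under 0.05 and 0 by DESeq2) summed to 192 to 220 CPM and 138 to 330 CPM, and Xcr1, a defining marker of cross-presenting dendritic cells, was at 0 in every library. Zbtb46, a transcription factor of classical dendritic cells, was at 0.645, 0.861 and 0.224 CPM in untreated cells, against 2.11, 1.10 and 2.17 CPM after GM-CSF, a difference of 1.62 ± 0.53 (edgeR, adjusted p = 0.336). Mrc1, the macrophage mannose receptor, was at 15.8, 22.6 and 23.1 CPM in untreated cells, against 6.17, 1.86 and 17.2 CPM after GM-CSF. Its mean was lower with the cytokine, but the groups overlapped and it was not called. Ccr2, on the same list and also not called, had a slightly higher mean with GM-CSF. It ranged from 24.5 to 27.8 CPM in untreated cells and from 19.9 to 35.3 CPM after GM-CSF. In bulk libraries, fewer cells of a type and less RNA per cell cannot be told apart.

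Within the 3 groups where Axl was high, the library lowest in Axl was also the lowest in Mrc1, Zbtb46 and the dendritic cell gene Cd209a. In wild type with GM-CSF that library, at 23.6 CPM of Axl, had 0.767 CPM of Cd209a, against 3.60 and 8.61 CPM in the other 2. With both cytokines it had 0.734 CPM of Cd209a against 4.07 and 11.9 CPM, and in labelled Irf5-/- cells with GM-CSF 1.31 CPM against 7.39 and 1.98 CPM. The sum over all 15 monocyte and macrophage markers follows its most abundant genes and does not measure cell content. In untreated wild type it was 2667 to 2726 CPM, where Mrc1 averaged 20.5 CPM and C1qb 8.68 CPM. In untreated Csf2ra-/- cells, where 11 of the 15 markers were lower, it was still 2192 to 2784 CPM. Within each of the 3 groups high in Axl, this sum was highest in the library lowest in Axl. In wild type with GM-CSF the sum was 2741 CPM there against 2466 and 2409 CPM. With both cytokines it was 2676 CPM against 2373 and 2543 CPM, and in labelled Irf5-/- cells 2535 against 2524 and 2418 CPM. The dendritic cell sum was lowest in that library, at 138, 130 and 126 CPM in the same order of groups. IL-10 alone went with the highest Mrc1 of all groups, 36.3 to 91.9 CPM, while Axl there was 8.09 to 9.47 CPM. In the labelled Irf5-/- comparison 1 of 15 macrophage markers (Ccr2) and 1 of 8 dendritic cell markers (Zbtb46, log2 fold change 3.17, edgeR adjusted p = 0.042) were higher with GM-CSF. Of all tested genes 0.353% were called there, in either direction. The dendritic cell list summed to 75.4 to 154 CPM in untreated cells against 126 to 341 CPM. In untreated Csf2ra-/- cells 11 of 15 macrophage markers and 4 of 8 dendritic cell markers were lower than in wild type (5.32% of all genes were), and with GM-CSF 4 of 15 and 4 of 8 (2.89% of all genes), when the lists summed to 2109 to 2437 CPM and 55.0 to 130 CPM and C1qa was at 0 in all 3 Csf2ra-/- libraries. The part of these cells in the Axl differences was not tested.

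**Figure D2:**
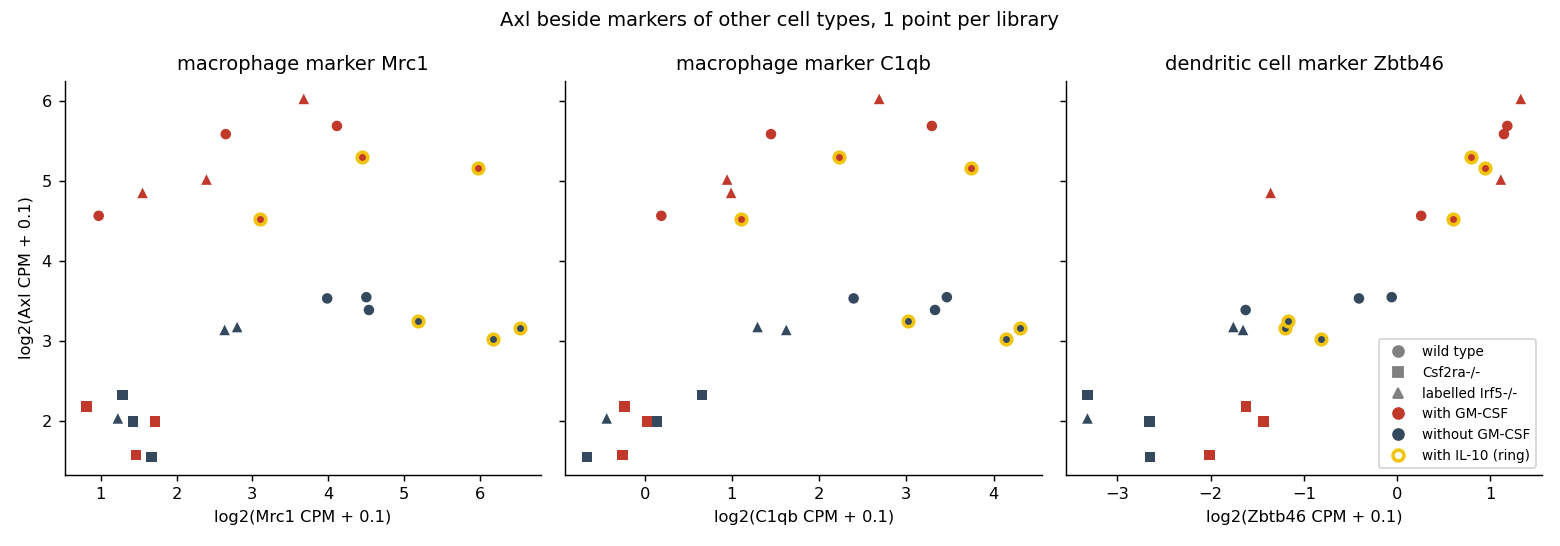
Axl level (y axis, log2 of CPM + 0.1) against the macrophage markers Mrc1 and C1qb and the dendritic cell marker Zbtb46 (x axes, log2 of CPM + 0.1), 1 point per library. Shape gives genotype, red marks GM-CSF and a yellow ring IL-10. The libraries with the most Mrc1, with IL-10 alone, have 8.09 to 9.47 CPM of Axl. Zbtb46 does not overlap between wild type with GM-CSF alone (1.10 to 2.17 CPM) and untreated wild type (0.224 to 0.861 CPM). That separation held for 12.8% of all tested genes, and the Zbtb46 difference did not pass the threshold in edgeR.

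Tyro3, the receptor best known from the nervous system, kept within 2.91 to 8.14 CPM over all 24 libraries. It was at 4.77, 3.70 and 4.56 CPM in untreated wild-type cells and at 5.43, 2.91 and 3.76 CPM with GM-CSF, and the groups overlapped. The log2 fold change was -0.11 ± 0.21 (edgeR, adjusted p = 0.976). IL-10 alone gave 3.35, 4.21 and 4.91 CPM, and both cytokines gave 5.33, 4.73 and 5.24 CPM, which are inside or next to the untreated range. The IL-10 differences were -0.08 ± 0.22 without and 0.34 ± 0.21 with GM-CSF, and GM-CSF with IL-10 gave 0.30 ± 0.21, none past the threshold in edgeR.

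Tyro3 was the 1 member that was higher in Csf2ra-/- cells. The untreated Csf2ra-/- libraries were at 8.14, 5.89 and 6.98 CPM, all above every untreated wild-type library. The log2 fold change was 0.67 ± 0.21 (edgeR, adjusted p = 0.0442), a level 1.59 times that of wild type. This call was not stable: leaving out any of 5 of the 6 libraries ended it, with an adjusted p of 0.177 and 0.0603 without Csf2ra-/- libraries 1 and 3, and 0.0507, 0.205 and 0.0941 without wild-type libraries 1, 2 and 3, as did dropping the filter (0.0583), limma-voom (0.0549), the Y-linked covariate (0.0926) and a fit on these 2 groups alone (0.201). With GM-CSF the Csf2ra-/- libraries were at 5.73, 6.47 and 6.43 CPM, again above all 3 wild-type ones, with a difference of 0.62 ± 0.21 (edgeR, adjusted p = 0.117). Groups without overlap made up 21.2% of all tested genes untreated and 18.1% with GM-CSF. Without the first wild-type GM-CSF library the difference was 0.91 and passed (adjusted p = 0.0243).

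GM-CSF did not move Tyro3 past the threshold in Csf2ra-/- cells (-0.16 ± 0.20) or in libraries labelled Irf5-/-, where it was at 6.24, 4.07 and 4.31 CPM without the cytokine, against 4.98, 6.27 and 5.67 CPM (0.25 ± 0.22). Against wild type the labelled Irf5-/- libraries differed by 0.12 ± 0.22 untreated and by 0.48 ± 0.21 with GM-CSF (edgeR, unadjusted p = 0.0316, adjusted p = 1.00). Neighbouring groups overlapped along the whole order of Tyro3 means.

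Mertk, the macrophage engulfment receptor, was scarcely detected. Only 5 of 24 libraries had 10 counts or more. All 5 were wild type with a cytokine: 17, 19 and 13 counts with both, 13 in library 2 with IL-10 and 10 in library 3 with GM-CSF. Mertk passed the low-count filter through such libraries. Its p-values therefore depend on the groups where it is high and lend no support to that pattern. It was at 0.0653, 0.517 and 0.0748 CPM in untreated wild-type cells (8 counts in all), 0.514, 0.164 and 0.724 CPM with GM-CSF (22 counts), 0.602, 0.869 and 0.344 CPM under IL-10 (26 counts) and 1.26, 1.38 and 0.681 CPM with both (49 counts). The mean was highest with both cytokines, and neighbouring groups overlapped along the order of means. GM-CSF differences were 1.13 ± 0.76 alone and 0.81 ± 0.57 with IL-10 (edgeR, adjusted p = 0.907 and 0.713). IL-10 differences were 1.57 ± 0.74 without GM-CSF (unadjusted p = 0.0479) and 1.25 ± 0.59 with it (unadjusted p = 0.0457), and neither passed after adjustment (edgeR, adjusted p = 0.999 and 1.00).

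All 3 untreated Csf2ra-/- libraries had 0 Mertk counts. A pooled count of 0 allows up to 3 counts, or 0.0714 CPM, as a 1-sided bound, and its 2-sided 95% Poisson interval reaches 0.0878 CPM. The pooled wild-type level was 0.199 CPM (95% Poisson interval 0.0857 to 0.391), of which library 2 held 6 of 8 counts. The 2 intervals overlap. In edgeR this difference did not pass (adjusted p = 0.0735), and in DESeq2 it did (adjusted p = 0.0468). With GM-CSF the Csf2ra-/- libraries had 5, 0 and 2 counts, a pooled level of 0.154 CPM (95% Poisson interval 0.0621 to 0.318) that did not differ past the threshold from untreated (edgeR, adjusted p = 0.999). Libraries labelled Irf5-/- had 5 Mertk counts in all untreated and 16 with GM-CSF, a difference of 1.49 ± 0.88 (edgeR, adjusted p = 0.951) although the groups did not overlap, which held for 15.9% of all tested genes.

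Gas6, the ligand of all 3 receptors, was low everywhere. Wild-type libraries were at 0.392, 0.947 and 0.748 CPM untreated. GM-CSF gave 0.343, 1.04 and 0.941 CPM, IL-10 gave 1.34, 1.80 and 0.430 CPM, and both gave 0.740, 1.38 and 0.786 CPM. All 4 wild-type groups overlapped, and the libraries of the IL-10 group lay furthest apart. No comparison passed for Gas6, and the largest difference, -1.29 ± 0.63 in Csf2ra-/- against wild type with GM-CSF (0.313 ± 0.187 against 0.775 ± 0.378 CPM, SD, n = 3), had an edgeR adjusted p of 0.367. GM-CSF differences were 0.18 ± 0.58 in wild type, -0.34 ± 0.52 with IL-10, -0.39 ± 0.71 in Csf2ra-/- and 0.60 ± 0.68 in libraries labelled Irf5-/-. These values rest on 14 to 52 counts per group.

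Pros1 encodes protein S, which also acts as an anticoagulant in plasma. It was at 1.11, 1.29 and 1.12 CPM in untreated wild-type cells and at 2.00, 1.04 and 3.40 CPM with GM-CSF, and the second GM-CSF library lay below all 3 untreated ones. The difference of 0.85 ± 0.44 did not pass (edgeR, adjusted p = 0.831). IL-10 alone gave 2.48, 2.07 and 1.38 CPM, above every untreated library, as 15.1% of all tested genes were separated in one or the other direction, and both cytokines gave 2.66, 2.40 and 1.57 CPM. The IL-10 difference was 0.76 ± 0.45 without GM-CSF and 0.05 ± 0.41 with it, and neither passed in edgeR (adjusted p = 0.999 and 1.00).

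Csf2ra-/- cells had the lowest Pros1. The untreated libraries held 0.247, 0.707 and 0.414 CPM and those given GM-CSF 0.324, 0.301 and 0.517 CPM, below every wild-type library in both conditions. Such a separation, in one or the other direction, held for 21.2% of all tested genes untreated and 18.1% with GM-CSF. With GM-CSF the log2 fold change against wild type was -2.46 ± 0.51 (95% interval -3.52 to -1.40, edgeR adjusted p = 0.00556), a level 0.182 times that of wild type, and leaving out each library gave -2.80 to -1.98. Fitted on these 2 groups alone it was -2.45 with an adjusted p of 0.0633. Without GM-CSF the difference was -1.25 ± 0.53 (edgeR, adjusted p = 0.131). GM-CSF within Csf2ra-/- cells gave -0.37 ± 0.61 (edgeR, adjusted p = 0.999), and the difference from the wild-type effect was -1.22 ± 0.76 (edgeR, adjusted p = 0.865). The macrophage and dendritic cell markers listed above were also lower in these cells, and their part in the Pros1 difference was not tested.

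The libraries labelled Irf5-/- held 0.160, 1.75 and 1.44 CPM of Pros1 without the cytokine, against 2.41, 2.54 and 1.67 CPM when it was added. The first untreated library, which had 1 count and the fewest total counts of the 24, stood below the others, and it was also the lowest of its group for Axl. The GM-CSF difference was 0.82 ± 0.45 (edgeR, adjusted p = 0.951). By mean level Pros1 was highest in 4 overlapping groups at 1.97 CPM or above (wild type with both cytokines, labelled Irf5-/- with GM-CSF, wild type with GM-CSF, wild type with IL-10), and untreated wild type was the next below.

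**Figure D3:**
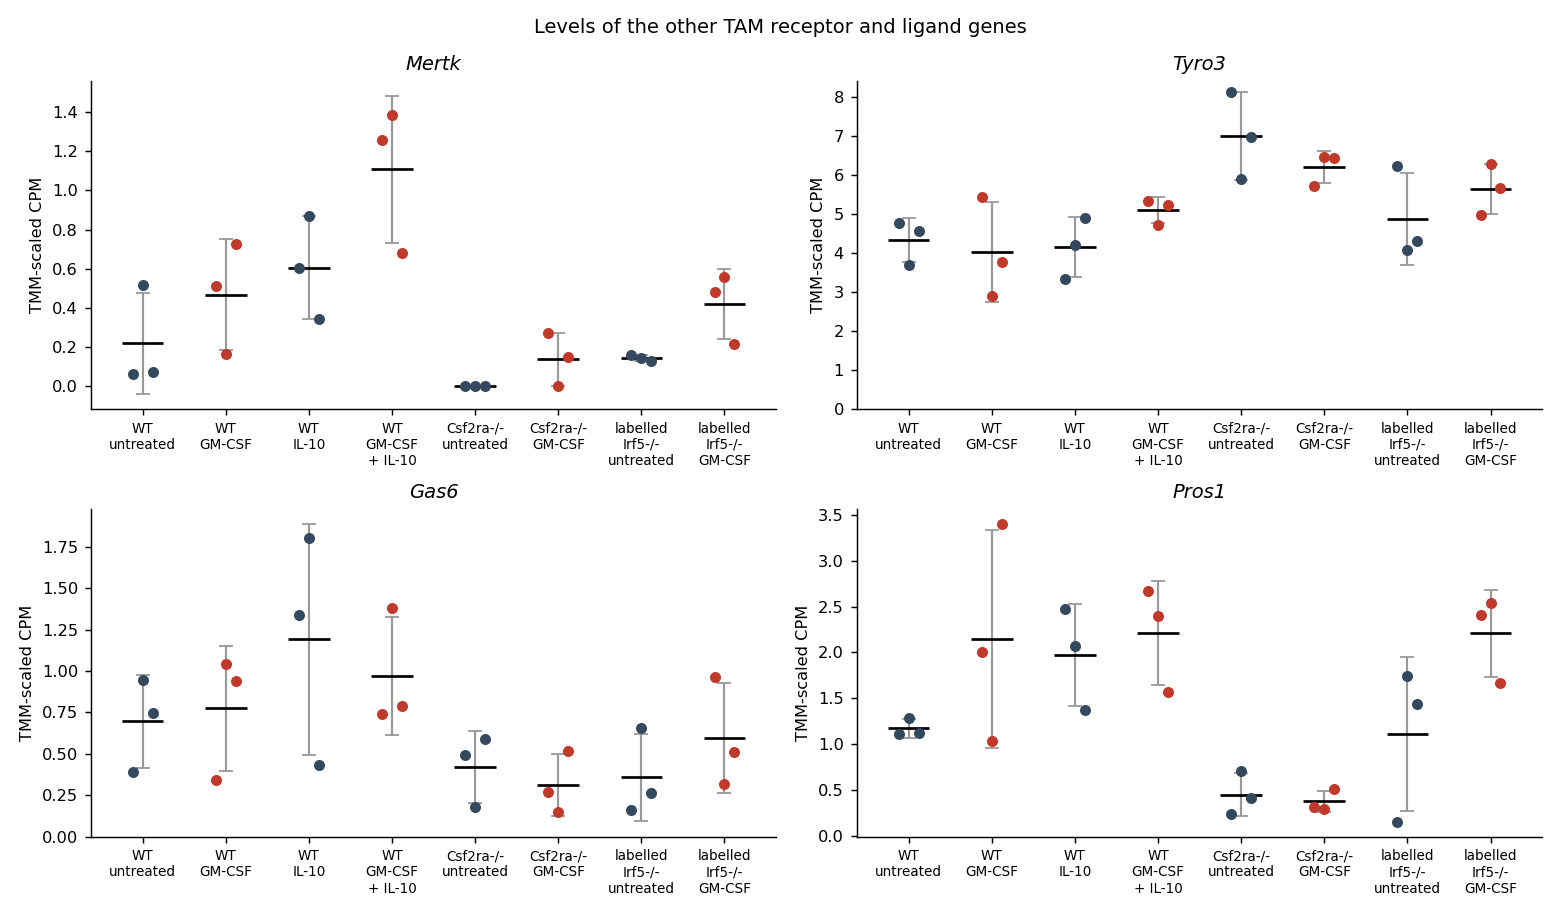
Levels of Mertk, Tyro3, Gas6 and Pros1 in each library by group (y axes, TMM-scaled CPM, linear, with a scale of its own per gene). Points are libraries, red with GM-CSF and dark without, black bars are group means and grey bars ± 1 SD (n = 3). Mertk is at 0 in all 3 untreated Csf2ra-/- libraries, Tyro3 is highest there at 5.89 to 8.14 CPM, and Pros1 is at or below 0.707 CPM in both Csf2ra-/- groups.

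**Figure D4:**
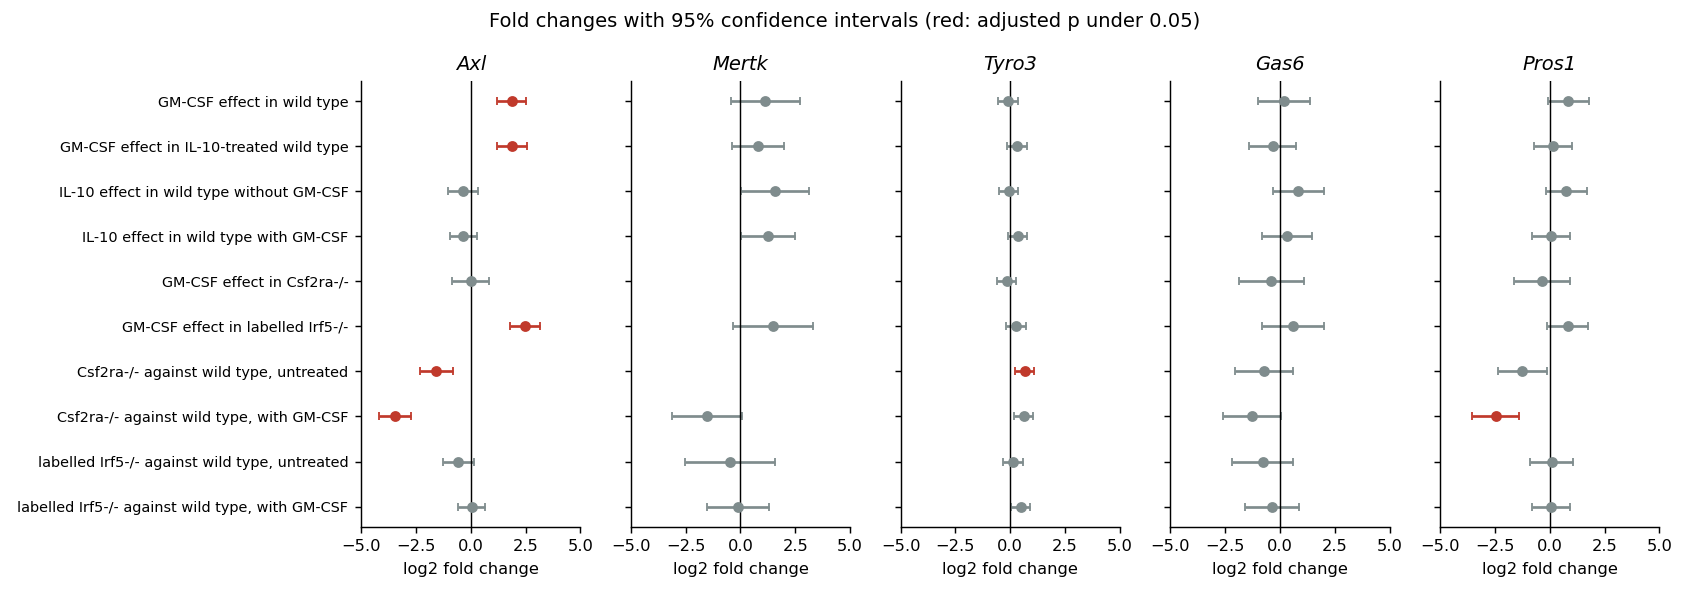
Log2 fold changes of the 5 genes (x axes) in 10 comparisons (rows), with 95% intervals from edgeR; red marks an adjusted p under 0.05. Axl is marked in 5 comparisons, Tyro3 and Pros1 in 1 each, and Mertk has no point where a group had 0 counts.

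Other genes of the pathway were read from 72 genes in 5 lists (other phosphatidylserine receptors and bridging proteins; gamma-carboxylation, shedding and other TAM ligands; kinase adaptors and engulfment machinery; interferon receptor feedback; lipid nuclear receptors and their targets), of which 60 could be tested. In wild type with GM-CSF, edgeR called 0 of 60 against 0.555% of all genes, with 9 of 60 at an unadjusted p under 0.05 against 745 of all 11885, and DESeq2 called 3 of 60, and the median log2 fold change was -0.04, against -0.01 over all genes. In libraries labelled Irf5-/- it called 0 of 60 (1 unadjusted, 0 by DESeq2), and in Csf2ra-/- cells 0 of 60 (0 unadjusted, 0 by DESeq2). With IL-10 present, GM-CSF changed 2 of 60, 1 higher and 1 lower, against 0.858% of all genes. The higher one, Socs1, an inhibitor of cytokine receptor signalling that TAM receptors are known to induce, averaged 35.3 ± 3.73 CPM under IL-10 alone and rose to 81.8 ± 8.52 CPM (SD, n = 3), a difference of 1.21 ± 0.23 on the log2 scale (edgeR, adjusted p = 0.00803). Without IL-10 its means were 41.2 CPM untreated and 72.4 CPM with GM-CSF (0.81 ± 0.23, edgeR adjusted p = 0.174). The 2 GM-CSF effects on Socs1 differed by 0.40 ± 0.32, which did not pass, so its rise was not particular to IL-10. IL-10 changed 0 of 60 without and 0 with GM-CSF (2 and 3 unadjusted, 1 and 1 by DESeq2), and labelled Irf5-/- against wild type 0 in both conditions (15 and 0 unadjusted, 0 and 0 by DESeq2).

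In untreated Csf2ra-/- cells 11 of the 60 genes were lower than in wild type and 0 higher, against 5.32% and 5.52% of all genes, with a median of -0.16 against 0.00 over all genes. Of 17 other phosphatidylserine receptors and bridging proteins, 6 were lower and 0 higher. The complement bridging components C1qc (5.56 ± 2.58 CPM in wild type, 0.322 ± 0.231 CPM in Csf2ra-/-; -4.21 ± 0.98, edgeR adjusted p = 0.0123) and C1qb (8.68 ± 3.09 and 1.00 ± 0.474 CPM; -3.20 ± 0.83, adjusted p = 0.021) and the engulfment receptor Lrp1 (18.7 ± 2.03 and 3.83 ± 0.783 CPM; -2.28 ± 0.35, adjusted p = 0.000592) differed most. The complement genes stand on the macrophage marker list too. The cholesterol exporter Abca1 (-1.48 ± 0.37, edgeR adjusted p = 0.0162) was among the 2 of 10 nuclear receptor genes and targets that were lower. Furin, a proprotein convertase (-0.51 ± 0.15, edgeR adjusted p = 0.0335), the adaptor Crk (-0.33 ± 0.09, adjusted p = 0.0212) and the interferon receptor chain Ifnar1 (-0.40 ± 0.13, adjusted p = 0.0467) were the 1 member called in each of the other 3 lists.

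With GM-CSF, 4 of 60 were lower in Csf2ra-/- cells than in wild type and 0 higher, against 2.89% of all genes lower, with a median of -0.04 against 0.00 over all genes. They were the scavenger receptor Cd36 (36.5 ± 7.90 CPM in wild type, 10.9 ± 2.05 CPM in Csf2ra-/-; -1.73 ± 0.29, edgeR adjusted p = 0.000819), Lrp1 (-1.56 ± 0.35, adjusted p = 0.0125), Socs3, an inhibitor of cytokine signalling (42.8 ± 7.93 and 21.5 ± 4.96 CPM; -0.996 ± 0.213, adjusted p = 0.00722), and Lgals3, which encodes galectin-3, a further Mertk ligand (-0.53 ± 0.15, adjusted p = 0.0485). Pros1 and Axl, described above, were lower in the same comparison.

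The 3 genes whose log2 CPM most resembled Axl over the 24 libraries were Flt1 (Pearson r = 0.97), which encodes a receptor for vascular endothelial growth factor, Irf4 (0.97), a transcription factor of the interferon regulatory family, and Mmp12 (0.96), a macrophage elastase. Over the 12 wild-type libraries r was 0.94, 0.97 and 0.96. Irf4 averaged 5.71 CPM in untreated wild-type cells, 17.7 with GM-CSF, 17.6 with both cytokines and 5.58 with IL-10, and in Csf2ra-/- cells 2.57 untreated and 2.00 with GM-CSF, so that the groups high and low in Axl were high and low in Irf4. For Mertk the genes were Ccl24 (0.89), Socs3 (0.89) and Cd164 (0.87), for Pros1 Ccl7 (0.93), Ms4a6d (0.91) and Shtn1 (0.91), for Tyro3 Trap1 (0.82), Knstrn (0.80) and Cep55 (0.79), and for Gas6 Derl1 (0.83), Srgn (0.82) and Vhl (0.82). The chemokine gene Ccl24 averaged 1.44 CPM in untreated wild-type cells, 11.3 with GM-CSF or with IL-10 and 44.5 with both, where Mertk also had its highest mean. Among the members themselves, Axl and Pros1 had r = 0.82 over 24 libraries and 0.53 over the 12 of wild type, Mertk and Pros1 0.75 and 0.79, and Tyro3 and Gas6 -0.61 and -0.53. The 24 points share the 8 groups and their library composition, and the genes were picked for the highest r among 10595 or 10596 candidates, so these values only describe these libraries.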

How the data were processed

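The deposited files hold whole-number counts per Ensembl gene, 1 file per library. Per the submitters' processing notes, STAR, featureCounts and the genome build GRCm38.p6 were used; the sources used here give neither their versions nor the strand setting. Rows without a symbol stayed in the fit. Groups came from the sample labels, and the replicate numbers follow the order of deposit. Members and lists were chosen with earlier results of these data known. Genes were kept by filterByExpr (minimum count 10), scaled by TMM, and tested in edgeR 4.0.16 (R 4.3.3) with a quasi-likelihood test on 8 group means over all 24 libraries, and p-values were Benjamini-Hochberg adjusted over 11885 genes. The SE is the log2 fold change divided by the root of F. Levels per length used exon lengths of GENCODE annotation, and likeness used log2(CPM + 1). Named were all 5 members, up to 3 called genes per pathway list and comparison, and the 3 genes most like each member with a mean of at least 1 CPM. Marker genes outside that rule were chosen after their values were seen. Alternatives were RLE scaling, no filter, a filter at 5 CPM, DESeq2 1.42.0, limma-voom (limma 3.58.1), only the groups compared, a Y-linked covariate and leaving out each library. The edgeR script was tested on simulated data. No 2 libraries of a group agreed within sampling noise. Floors for a count of 0 cover counting error only. 1 gene that the naming rule selects is not reported here by name.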

Additional observations from a re-analysis of the deposited data

How the results depend on the processing

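No paired analysis was run, because the labels give no replicate numbers that groups share. Of 677 recomputed member values, 622 kept their direction and their side of the threshold, and none of the 40 that changed sign belonged to a called difference. The count of members called in untreated Csf2ra-/- against wild type (2) was 1 with no filter, limma-voom, the Y-linked covariate or only the groups compared, and 1 to 2 when libraries were left out, each time without Tyro3 where it was 1. DESeq2 gave 3, with Mertk added, and Mertk also passed without wild-type library 1 (adjusted p = 0.049), where Tyro3 did not. With GM-CSF (2) it was 2 to 3 when libraries were left out, and 1 with the 5 CPM filter, which removes Pros1 from the test, or only the groups compared. GM-CSF in libraries labelled Irf5-/- (1) gave 0 with only the groups compared, and the Csf2ra-/- minus wild-type difference (0) gave 1 with DESeq2. Sign changes outside leave-one-out were Pros1 in labelled Irf5-/- against wild type, -0.28 untreated and -0.24 with GM-CSF (Y-linked covariate) and -0.17 untreated (limma-voom), Mertk there, 0.092 and 0.038 (limma-voom), and Axl with GM-CSF in Csf2ra-/-, 0.033 (limma-voom). Leaving out each library moved the GM-CSF effect in Csf2ra-/- from -0.20 to 0.16 for Axl, -0.63 to 0.090 for Pros1 and -0.88 to 0.092 for Gas6, that in wild type from -0.39 to 0.084 for Tyro3 and -0.13 to 0.54 for Gas6, and that with IL-10 from -0.053 to 0.34 for Pros1 and -0.70 to 0.077 for Gas6. IL-10 effects ran from -0.21 to 0.065 for Tyro3 without GM-CSF, and with it from -0.29 to 0.53 for Pros1 and -0.049 to 0.62 for Gas6. Labelled Irf5-/- against wild type ran untreated from -0.056 to 0.23 for Tyro3, -0.28 to 0.44 for Pros1 and -0.96 to 0.94 for Mertk, and with GM-CSF from -0.42 to 0.25 for Axl, -0.28 to 0.53 for Pros1 and -0.55 to 0.29 for Mertk. The Axl effect with minus without IL-10 ran from -0.27 to 0.22. Over all genes, GM-CSF in wild type called 66 (112 with DESeq2, 37 with the 5 CPM filter, 31 to 61 without 1 library), with IL-10 102 (168, 63, 44 to 102), and in labelled Irf5-/- 42 (78, 26, 11 to 42, and 20 with limma-voom). IL-10 called 6 without GM-CSF (30 with DESeq2, 47 with only the groups compared, 0 to 7 without 1 library) and 6 with it (21, 0, 0 to 5, and 3 with the Y-linked covariate). GM-CSF in Csf2ra-/- called 0 (0 to 46 without 1 library). Csf2ra-/- against wild type called 1288 untreated (753 with the Y-linked covariate, 200 with only the groups compared, 301 to 2618 without 1 library) and 451 with GM-CSF (247 with the 5 CPM filter, 201 with only the groups compared, 223 to 443). Labelled Irf5-/- against wild type called 4 untreated (23 with DESeq2, 9 with no filter, 550 with only the groups compared, 1 to 8) and 4 with GM-CSF (8, 2 with only the groups compared, 2 to 5). The differences of effects called 7 for Csf2ra-/- (27 with DESeq2, 3 with only the groups compared, 4 to 12) and 0 for the others (1 each with DESeq2). The cause of these changes was not tested. Mertk and Gas6 rest on few counts, at most 52 per group.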
